A study of Rattus norvegicus with 8 samples.

Results

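Genes of fibroblast growth factor (FGF) signalling and of the feedback loops that restrain it were followed in 3 groups of rat male germ cells. The members were taken by gene symbol, by a rule that uses no values although earlier results of these data were known: 58 of the 16764 symbols in the count table. They are 22 Fgf genes, 5 receptor genes (Fgfr1 to Fgfr4 and Fgfrl1), 4 Sprouty genes (Spry1 to Spry4), 3 Spred genes, the ETS factor genes Etv1, Etv4 and Etv5, and 21 Dusp genes. Of the 58, 37 had enough counts to be tested, and the other 21 had between 3 and 39 counts in all 6 libraries together (median 16).

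FGFs bind receptor tyrosine kinases together with heparan sulphate, and the receptors act through the adaptor Frs2, Ras and the MAP kinase cascade that ends in ERK. ERK activity raises the Etv factors of the PEA3 group and, as negative feedback, Sprouty and Spred proteins, which act upstream of Raf, and dual-specificity phosphatases (Dusp) such as Dusp6, which remove the activating phosphates of ERK. In the testis, FGF2 and GDNF are the growth factors used to expand spermatogonial stem cells in culture, and Etv5 is known for its need in the upkeep of these cells. The name Dusp also covers phosphatases of JNK and p38 and several that do not act on MAP kinases.

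All samples came from Brown Norway rats, with no genetic change named. Undifferentiated spermatogonia (USg) were a spermatogonial stem cell line kept in SG medium, which holds GDNF and an FGF per the labels of companion samples, and their RNA was taken on day 0, before plating on laminin. Differentiating spermatogonia (DSg) were replicate cultures of this line on day 7 on laminin, after 120 h in SD medium, to which all-trans retinoic acid and neuregulin-1 were added. Whether SD medium also held GDNF or an FGF is not given in the sources used here, and the titles of USg and DSg samples both carry T120. Spermatocyte-enriched cells (Spc) were primary germ cells that did not stick to plastic, collagen-I or laminin, kept for 2.5 days in a medium containing 10% fetal bovine serum. There were 2 RNA libraries per group (n = 2 throughout), and for Spc nothing states that they came from separate animals, so p-values measure the spread between these samples. Medium, laminin and time in culture cannot be told apart between DSg and USg, nor can stage, source, selection and serum between Spc and the line. The line is a single line, and 2 samples of anti-Foxa2 immunoprecipitation were not analysed here.

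The promoters of Dusp6, Spry4, Etv5 and Fgfr3 are shown because the levels of these genes carry most of what follows. Each run is the 250 bases before the start site in RefSeq on build GRCr8, 5′ to 3′ on the strand of the gene. Capitals mark CGGAA, which is the core bound by ETS factors, GGAA, with a C before it, read as TTCCG on the other strand. GGAA after other letters is not marked. The windows lie at chr7:35979354-35979603 (Dusp6, plus strand), chr18:30702547-30702796 (Spry4, minus strand), chr11:92113013-92113262 (Etv5, plus strand) and chr14:81227210-81227459 (Fgfr3, minus strand).
Dusp6: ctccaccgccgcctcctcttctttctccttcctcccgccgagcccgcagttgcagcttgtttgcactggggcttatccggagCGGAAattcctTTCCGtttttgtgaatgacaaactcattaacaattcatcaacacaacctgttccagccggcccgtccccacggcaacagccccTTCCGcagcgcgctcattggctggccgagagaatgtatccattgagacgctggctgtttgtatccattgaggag
Spry4: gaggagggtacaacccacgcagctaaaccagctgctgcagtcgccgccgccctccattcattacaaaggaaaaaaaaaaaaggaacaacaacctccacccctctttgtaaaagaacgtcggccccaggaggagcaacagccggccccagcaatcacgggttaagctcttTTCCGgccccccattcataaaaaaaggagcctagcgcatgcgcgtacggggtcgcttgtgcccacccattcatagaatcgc
Etv5: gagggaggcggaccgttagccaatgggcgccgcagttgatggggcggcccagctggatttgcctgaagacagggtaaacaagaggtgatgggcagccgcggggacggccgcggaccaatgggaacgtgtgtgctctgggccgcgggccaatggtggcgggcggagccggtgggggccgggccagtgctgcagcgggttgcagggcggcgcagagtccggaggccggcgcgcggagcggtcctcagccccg
Fgfr3: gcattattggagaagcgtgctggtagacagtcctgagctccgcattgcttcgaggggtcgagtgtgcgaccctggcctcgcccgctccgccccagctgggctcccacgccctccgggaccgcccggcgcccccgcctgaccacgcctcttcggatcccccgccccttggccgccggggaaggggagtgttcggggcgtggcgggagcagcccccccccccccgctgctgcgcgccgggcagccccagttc
The Dusp6 window held CGGAA 3 times, starting 168, 157 and 74 bases before the start site, and the Spry4 window held it once, 81 bases before. The Etv5 and Fgfr3 windows held no CGGAA, which says only that these letters are not in these 250 bases. Both hold the shorter GGAA. Of all 33469 rat promoter windows of this length, 26.1% held CGGAA, and of the 53 windows of 48 members with a window, 14 (26.4%) did. The share among the members was thus near that of all promoters.

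The libraries held 2657291 to 5697165 counts. Levels are CPM, the count of a gene relative to the library size after scaling by TMM factors, and 1 count was worth 0.178 to 0.404 CPM. Markers of each label were present. The 8 spermatocyte markers summed to 6285 and 6959 CPM in Spc and to 488 to 1027 in the line. The 6 measured markers of undifferentiated spermatogonia summed to 1194 and 1211 CPM in USg and to 160 to 206 in the other groups. Of these 6, 3 were lower in DSg than in USg and 5 lower in Spc than in USg (edgeR, adjusted p under 0.05). Id4 went the other way in Spc, at 140 and 118 CPM against 49.0 and 47.4 in USg, and made up most of the Spc sum. The 4 measured markers of differentiating spermatogonia summed to 801 and 895 CPM in DSg and to 131 to 337 elsewhere. Most of the DSg sum was Kit, at 597 and 562 CPM, the only 1 of the 4 called higher in DSg than in USg. Dnmt3b was higher in both DSg libraries without a call. Sohlh1 stood at 43.2 and 147 CPM in USg and 54.1 and 79.4 in DSg, and Dmrtb1 was highest in Spc. The share of ribosomal RNA genes was 7.81% in USg 1 and 12.4% in DSg 1, against at most 0.733% elsewhere. In DSg 2, 96.7% of the 1044 olfactory receptor genes had a count, against 23.4% to 64.1% in the others, so counts of a few reads in DSg 2 are hard to read. The replicates of USg and DSg differed more than those of Spc (SD of the log2 difference over the 37 members 1.06, 0.95 and 0.42). In all these bulk libraries, fewer cells of a type and less RNA per cell cannot be told apart.

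In differentiating spermatogonia, a receptor gene and 4 genes that ERK signalling is known to raise were lower than in undifferentiated spermatogonia of the same line. Fgfr3, Spry4, Etv5, Dusp6 and Dusp4 fell, by 5.19-fold (Etv5) to 11.7-fold (Dusp4). No member was called higher, although 14 of the 37 had a positive log2 fold change and 23 a negative one. A gene is called here at an adjusted p under 0.05 in the quasi-likelihood F-test of edgeR, two-sided, with Benjamini-Hochberg adjustment over all 12210 genes tested. By this rule 5 of 37 members (13.5%) were lower and 0 higher, beside 1.92% lower, 0.565% higher and 2.48% in either direction over all genes. At an unadjusted p under 0.05, 10 members were lower and 3 higher, DESeq2 called 6 lower and 0 higher, and limma-voom 5 and 0. The median log2 fold change was -0.26 over the members and 0.01 over all genes. Without DSg 1 or without DSg 2, when the lone library was assumed to vary like the other groups, edgeR called no member and no gene at all, with 9 members lower and 2 higher, or 8 and 3, at an unadjusted p under 0.05. The 5 genes then had log2 fold changes of -2.68 (Etv5) to -4.01 (Dusp6) without DSg 1, with adjusted p of 0.0762 to 0.113, and of -2.27 (Etv5) to -3.80 (Dusp4) without DSg 2, with adjusted p of 0.127 to 0.191. With USg 1 and DSg 1, the libraries high in ribosomal RNA, left out together, the spread rested on Spc alone and 14 of 40 members tested were lower and 7 higher in DSg than in USg, beside 45.1% of all genes called, so calls gained in that setting alone are not listed below. Without USg 1 alone, 9 of 43 members were called, beside 10.7% of all genes.

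In spermatocyte-enriched cells, most of the genes that differed were lower, while the ligand genes Fgf7 and Fgf1 and the phosphatase genes Dusp1, Dusp2, Dusp5 and Dusp15 were higher than in 1 or both groups of the line, and Spry4 higher than in DSg. Against USg, 14 of 37 members were lower and 5 higher (51.4% called), beside 16.6% lower, 17.9% higher and 34.5% in either direction over all genes. Against DSg, 10 were lower and 6 higher (43.2% called), beside 11.7% lower, 14.8% higher and 26.5% in either direction over all genes. The medians were -0.77 against USg and -0.40 against DSg, where those of all genes were -0.04 and -0.03. The 3 comparisons share libraries, so their calls are not independent of each other. In each fit without 1 library, the lone library of that group was assumed to vary like the other groups. Without Spc 1 or Spc 2 these were USg and DSg, whose replicates differed more, and fewer of all genes were called against either. A call lost in such a fit can therefore not be laid to that gene alone. In all, 20 members were called in at least 1 comparison and 17 in none. By group mean, 13 of the 37 members had the order USg, DSg, Spc from high to low, 7 the order Spc, USg, DSg, and the other 17 one of the remaining orders. The orders were not counted over all genes, so these counts cannot be read as a trait of the members.

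**Figure D1:**
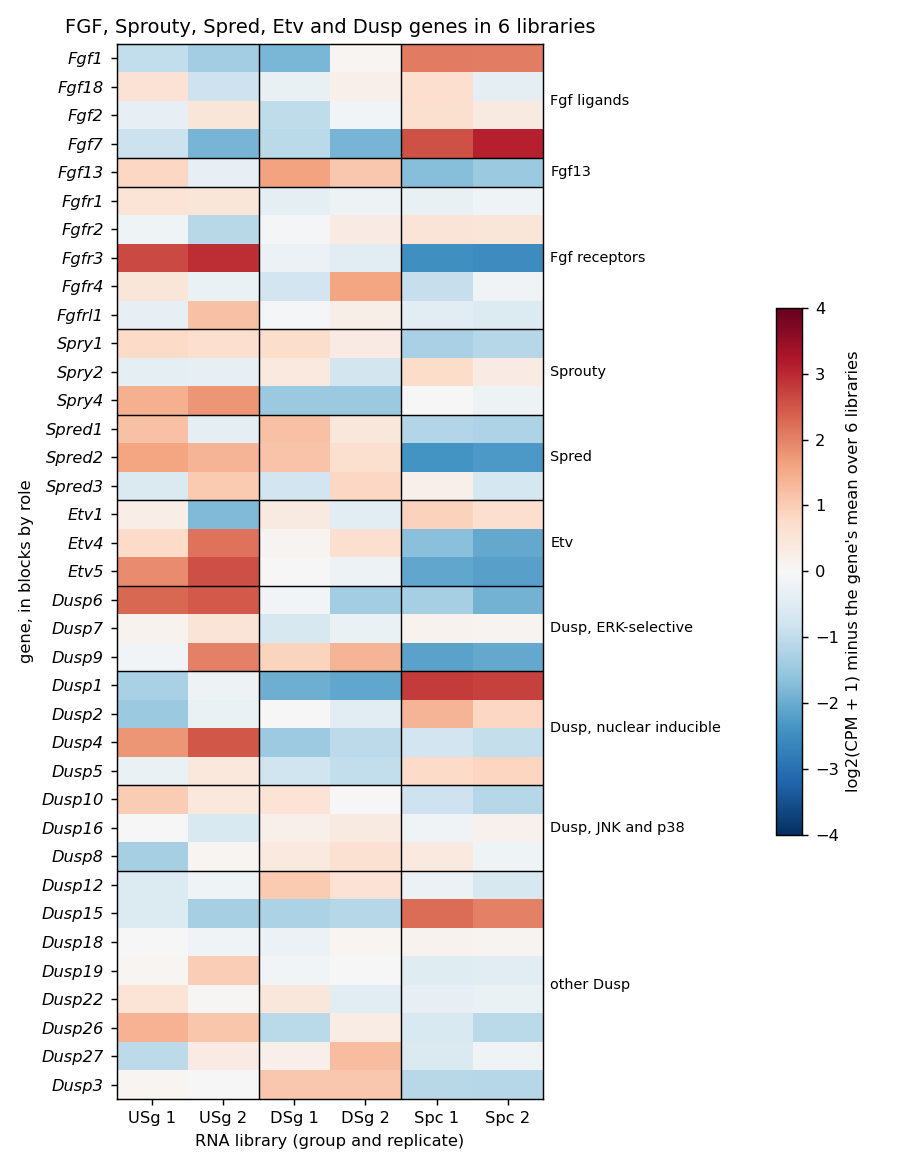
Each row is 1 of the 37 tested members and each column 1 library, and the colour gives log2(CPM + 1) minus the mean of that gene over the 6 libraries. Fgfr3, Etv5, Dusp6 and Dusp4 are clearly red (above their mean) in both USg columns, and Fgf7, Fgf1, Dusp1 and Dusp15 in both Spc columns.

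Among the ligands, Fgf7 and Fgf1 were higher in Spc than in either group of the line, and neither differed between DSg and USg by the test. Fgf7, the keratinocyte growth factor, which acts on a splice form of Fgfr2, stood at 94.99 and 140 CPM in the Spc libraries, at 8.10 and 3.56 in USg and at 6.87 and 3.50 in DSg. Both Spc libraries lay far above the line, whose groups overlapped. The log2 fold change was 4.40 ± 0.53 (SE) against USg (adjusted p = 5.39e-04, edgeR) and 4.53 ± 0.54 against DSg (adjusted p = 7.47e-04). Fgf1, a ligand of all FGF receptors, had 70 and 62 counts in Spc, 2 and 2 in USg and 0 and 10 in DSg. In CPM these were 13.8 and 13.5, 0.772 and 0.356, and 0 and 2.69. Its fold change was 4.67 ± 1.07 against USg (adjusted p = 0.0105) and 3.17 ± 0.95 against DSg (adjusted p = 0.0372). The call against DSg was lost without Spc 1 (adjusted p = 0.0891), without Spc 2 (0.0822), and with total-count (0.0816) or upper quartile scaling (0.0625). All DSg counts of Fgf1 came from DSg 2: the fold change was 2.51 without DSg 1 (adjusted p = 0.0424), while without DSg 2 the DSg level was 0 and the fitted value of 8.80 (adjusted p = 0.0132) depends on the prior count. Fgf7 moved to 4.99 against USg without USg 1 (adjusted p = 1.00e-04) and to 5.23 against DSg without DSg 1 (adjusted p = 0.0117).

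Marker sums of peritubular, stromal, Sertoli, Leydig and macrophage cells were higher in Spc, as Fgf7 and Fgf1 were, and that of endothelium was not. Single markers of a list did not all go the same way. The 7 measured of 8 peritubular and stromal markers summed to 2622 and 2507 CPM in Spc and to 235 to 511 in the line, and 5 of the 6 tested were higher in Spc in both comparisons. Dcn stood at 538 and 558 CPM in Spc and at 2.14 to 5.12 in the line, and Pdgfra at 415 and 393 against 28.01 to 95.7, whereas Lum was at most 1.62 CPM in every library. The 8 Sertoli markers summed to 1043 and 1310 CPM in Spc and to 206 to 468 in the line, the 6 Leydig markers to 163 and 174 against 5.40 to 21.3, nearly all of it from Star, and the 6 macrophage markers to 54.6 and 70.8 against 7.68 to 25.3. Of 3 Leydig markers tested, Star was called higher in Spc in both comparisons and Cyp11a1 was called lower than in DSg. The 5 endothelial markers summed to 130 to 185 CPM in USg, 60.2 and 70.6 in DSg and 35.5 and 43.1 in Spc. Pecam1 was called lower in Spc in both comparisons and Kdr lower than in USg, whereas Cdh5 was called higher than in USg. None of the markers of these lists was at 0 in all libraries. The part of somatic cells in the levels of Fgf7, Fgf1 or any other member in Spc was not tested.

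**Figure D2:**
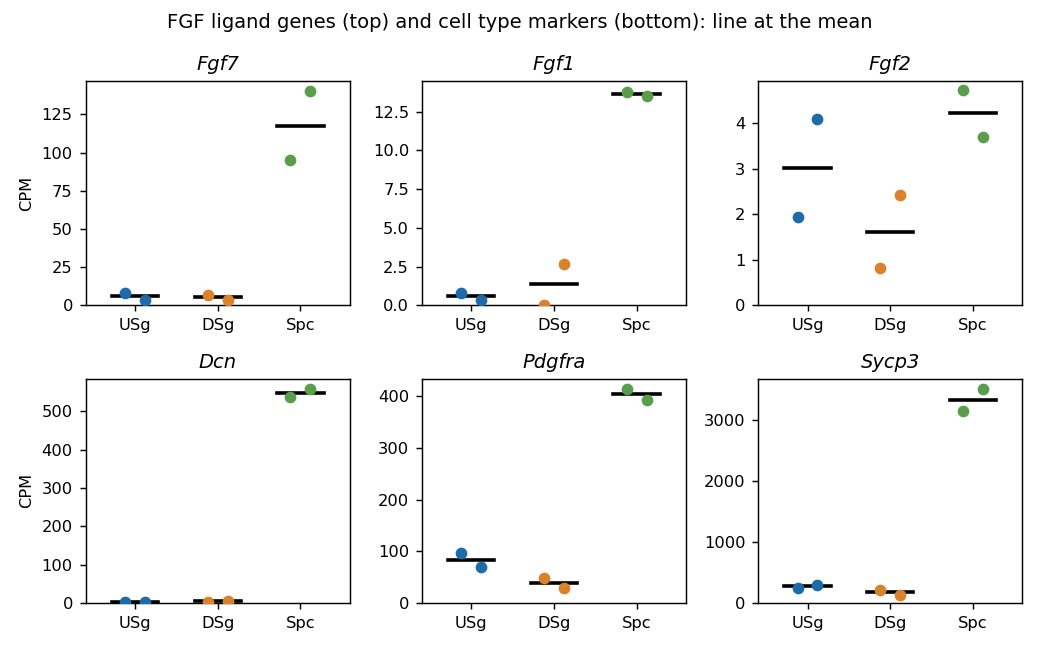
Points give the CPM of 3 ligand genes (top) and of 2 stromal markers and the spermatocyte marker Sycp3 (bottom) in each library, with a line at the mean of the 2 libraries of a group and an axis from 0 in each panel. Fgf7, Fgf1, Dcn, Pdgfra and Sycp3 are higher in both Spc libraries than in all 4 libraries of the line, and the ranges of Fgf2 in USg and Spc overlap.

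Fgf2, the factor used in stem cell cultures, was low, at 1.93 and 4.10 CPM in USg, 0.808 and 2.42 in DSg and 4.73 and 3.70 in Spc, and Fgf18 lay between 0.534 and 3.35 CPM. Neither was called in any comparison, and the DSg and USg ranges overlapped for both. Fgf13, one of the intracellular FGF homologous factors, which bind sodium channels and are not secreted, was at 29.7 and 12.8 CPM in USg, 52.5 and 35.8 in DSg and 4.34 and 5.23 in Spc. The groups did not overlap, with DSg highest and Spc lowest. Fgf13 fell in Spc, with log2 fold changes of -2.12 ± 0.50 against USg (adjusted p = 0.0119) and -3.20 ± 0.51 against DSg (adjusted p = 0.00279), while DSg against USg was 1.07 ± 0.46 and not called (adjusted p = 0.255). Without USg 1 this last difference was called, at 1.66 (adjusted p = 0.0399), and that of Spc against USg was -1.46 (adjusted p = 0.0290).

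The other 17 Fgf genes were below the filter. They are the secreted Fgf3, Fgf4, Fgf5, Fgf6, Fgf8, Fgf9, Fgf10, Fgf16, Fgf17, Fgf20 and Fgf22, the endocrine Fgf19, Fgf21 and Fgf23, and the intracellular Fgf11, Fgf12 and Fgf14. Together they held 35 and 51 counts in the USg libraries, 23 and 92 in DSg and 24 and 21 in Spc. All 17 had a count in DSg 2, the library in which nearly every olfactory receptor gene did too, and 10 to 13 of them in the others. Fgf9, a ligand known from testis development, had 5, 6, 1, 5, 6 and 5 counts across USg 1 to Spc 2, and Fgf8 had 3, 5, 3, 2, 2 and 2. These genes were too low for the test as fitted here, and no comparison of their groups is given.

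Of the 5 receptor genes, Fgfr3 fell and no other was called. Fgfr3, known as a marker of undifferentiated spermatogonia, stood at 328 and 407 CPM in USg, 44.0 and 38.2 in DSg and 8.67 and 8.27 in Spc. The 3 groups did not overlap, and each difference between groups was larger than the gap between replicates of the groups compared. The fold change of DSg against USg was -3.16 ± 0.32 on the log2 scale (8.94-fold lower, adjusted p = 0.00555). Spc was lower than USg by 43.2-fold (-5.43 ± 0.36, adjusted p = 1.03e-04) and lower than DSg by 4.83-fold (-2.27 ± 0.32, adjusted p = 0.00164).

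Fgfr1, which carries much of the response to FGF2 in many cell types, was at 89.1 and 85.3 CPM in USg, 47.3 and 52.2 in DSg and 49.1 and 53.1 in Spc. Both USg libraries lay above the other 4, but neither difference was called. Fgfr2 was at 15.4 and 7.48 CPM in USg, 16.6 and 22.1 in DSg and 25.4 and 24.8 in Spc. Spc against USg was 1.17 ± 0.44 (adjusted p = 0.0707); it was called by limma-voom (1.36, adjusted p = 0.0332) and without USg 1 (1.70, adjusted p = 0.0109). Fgfrl1, a receptor that lacks the kinase domain, was uneven within USg, at 13.9 and 41.1 CPM, with 17.0 and 21.3 in DSg and 12.6 and 11.8 in Spc. Its difference of Spc against USg, -1.20 ± 0.51, was not called (adjusted p = 0.0999) and was called without USg 1 (-1.80, adjusted p = 0.00308) and with no filter (-1.23, adjusted p = 0.0468). Fgfr4 had 10.2 CPM in DSg 2 and 0.985 to 4.24 in the other libraries, so that its value against Spc, -1.79 ± 1.02 (adjusted p = 0.221), rested on DSg 2 and was 0.45 without it (adjusted p = 0.802).

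**Figure D3:**
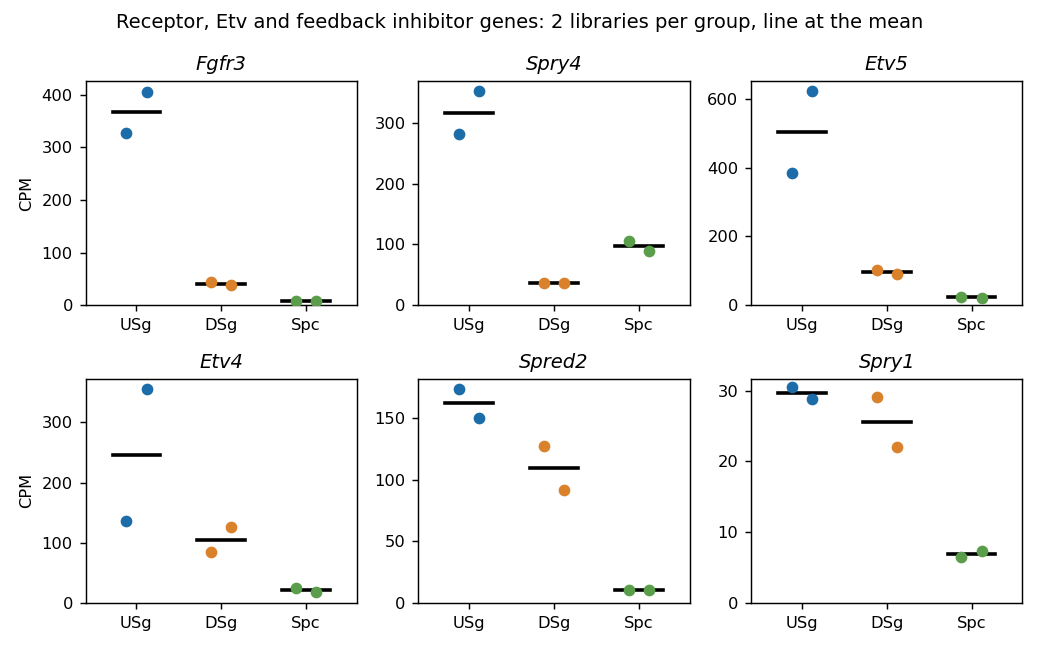
Points give the CPM of Fgfr3, Spry4, Etv5, Etv4, Spred2 and Spry1 in each library by group, with a line at the mean of 2 libraries and an axis from 0 in each panel. Fgfr3, Spry4 and Etv5 are far higher in both USg libraries (328 and 407 CPM for Fgfr3) than elsewhere, while Spred2 and Spry1 differ between Spc and the line.

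The Sprouty genes did not move alike. Spry4, which restrains receptor signalling to ERK, stood at 281 and 353 CPM in USg, 36.4 and 36.6 in DSg and 106 and 89.7 in Spc. USg was highest, DSg lowest and Spc between, with no overlap. Spry4 fell by 3.12 ± 0.32 (log2) in DSg against USg, an 8.69-fold drop (adjusted p = 0.00556), and was 3.25-fold lower in Spc than in USg (-1.70 ± 0.30, adjusted p = 0.00296). Dusp1 and Dusp5, described below, were called higher in Spc than in DSg, but their falls from USg to DSg (log2 -1.55 and -1.04) were not called. Spry4 was the only member called lower in DSg than in USg and higher in Spc than in DSg (1.42 ± 0.30, adjusted p = 0.00984). This last call was lost without DSg 2 (adjusted p = 0.0520), Spc 1 (0.145) or Spc 2 (0.0619), and that of Spc against USg without Spc 2 (0.0912).

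Spry1, an inhibitor known from the control of GDNF and Ret signalling in the kidney, was at 30.5 and 28.8 CPM in USg, 29.1 and 22.1 in DSg and 6.50 and 7.40 in Spc. The 2 groups of the line overlapped and both lay above Spc. It fell in Spc, with log2 fold changes of -2.09 ± 0.38 against USg (adjusted p = 0.00339) and -1.87 ± 0.38 against DSg (adjusted p = 0.00781), the latter call being lost without DSg 1 (adjusted p = 0.0534), Spc 1 (0.122) or Spc 2 (0.0726). Spry2 was at 30.1 and 30.6 CPM in USg, 51.7 and 23.2 in DSg and 65.2 and 49.0 in Spc, and was called in no comparison. Spry3 had at most 7 counts in any library and was not tested.

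Spred2 and Spred1, which bind Ras pathway proteins at the membrane and block the activation of Raf, were lower in Spc than in the line and did not differ between DSg and USg by the test. Spred2 was at 174 and 150 CPM in USg, 128 and 91.6 in DSg and 10.2 and 10.9 in Spc. All 4 libraries of the line stood far above Spc, and Spred2 was 15.3-fold lower in Spc than in USg (-3.94 ± 0.35, adjusted p = 2.12e-04) and 10.3-fold lower than in DSg (-3.37 ± 0.35, adjusted p = 4.12e-04). Spred1 was uneven in USg, at 52.1 and 16.9 CPM, with 51.3 and 30.7 in DSg and 9.26 and 8.93 in Spc. It fell in Spc, with log2 fold changes of -1.90 ± 0.55 against USg (adjusted p = 0.0281) and -2.16 ± 0.56 against DSg (adjusted p = 0.0213). The first call was lost with limma-voom (adjusted p = 0.0617) and without USg 1 (-0.94, 0.140), Spc 1 (0.0509) or Spc 2 (0.0630), and the second without DSg 1 (-1.57, 0.129). Without USg 2 the first was -2.50 (adjusted p = 0.00106). Spred3 lay between 1.21 and 6.77 CPM in every group, with no call.

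Of the Etv factors, Etv5 was highest in USg, lower in DSg and lowest in Spc, whose cells did not come from the line. It stood at 383 and 622 CPM in USg, 104 and 89.9 in DSg and 23.8 and 22.0 in Spc, with no overlap between groups. The drop from USg to DSg was 5.19-fold (-2.38 ± 0.34, adjusted p = 0.0140). Spc was 21.9-fold lower than USg (-4.45 ± 0.37, adjusted p = 1.51e-04) and 4.22-fold lower than DSg (-2.08 ± 0.34, adjusted p = 0.00326). Etv4, the closest relative of Etv5 in many settings of FGF signalling, was at 135 and 356 CPM in USg, 84.4 and 126 in DSg and 24.0 and 18.1 in Spc. USg libraries were uneven, yet both lay above DSg, and all 4 of the line lay above Spc. Etv4 fell in Spc, with log2 fold changes of -3.54 ± 0.51 against USg (adjusted p = 0.00120) and -2.32 ± 0.49 against DSg (adjusted p = 0.00937), the latter without a call when DSg 2 was left out (adjusted p = 0.0645). Without USg 2 the difference of Spc from USg was -2.67 (adjusted p = 3.64e-04). DSg against USg was -1.22 ± 0.47 and not called (adjusted p = 0.206), but was called without USg 1 (-1.90, adjusted p = 0.00933) and with no filter on low counts (-1.43, adjusted p = 0.0290).

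Etv1, the remaining factor of the group, had the opposite order of means to Etv5. It was at 19.7 and 4.10 CPM in USg, 21.4 and 11.6 in DSg and 32.1 and 26.8 in Spc. Spc lay above both groups of the line, which overlapped. Spc against USg was 1.38 ± 0.66 and not called (adjusted p = 0.135). It was called without USg 1 (2.80, adjusted p = 0.00253), with limma-voom (2.02, adjusted p = 0.0296), with no filter (1.395, adjusted p = 0.0241) and with a replicate block (1.63, adjusted p = 0.0209).

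The 3 Dusp genes for cytoplasmic phosphatases selective for ERK, Dusp6, Dusp7 and Dusp9, differed from each other. Dusp6, the textbook ERK feedback phosphatase of FGF signalling, stood at 321 and 363 CPM in USg, 59.8 and 24.2 in DSg and 25.2 and 16.8 in Spc. USg was far above the rest, and DSg 2 lay within the range of Spc. Dusp6 fell by 3.03 ± 0.46 (log2) in DSg against USg, 8.20-fold (adjusted p = 0.0178), and was 16.2-fold lower in Spc than in USg (-4.02 ± 0.48, adjusted p = 5.41e-04). Spc against DSg was -0.99 ± 0.45 (95% interval -2.003 to 0.0287) and not called (adjusted p = 0.135), but was called without DSg 2 (-1.51, adjusted p = 0.0433). Dusp9 was uneven in USg, at 37.0 and 164 CPM, with 73.9 and 103 in DSg and 8.28 and 8.93 in Spc. The line overlapped within itself and lay above Spc, in which Dusp9 fell, with log2 fold changes of -3.55 ± 0.65 against USg (adjusted p = 0.00365) and -3.36 ± 0.65 against DSg (adjusted p = 0.00637). The first was -4.29 without USg 1 (adjusted p = 2.47e-05) and -2.09 without USg 2 (adjusted p = 0.00180). Dusp7 was at 67.5 and 87.6 CPM in USg, 39.2 and 51.4 in DSg and 68.4 and 66.4 in Spc, with no call in any comparison.

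**Figure D4:**
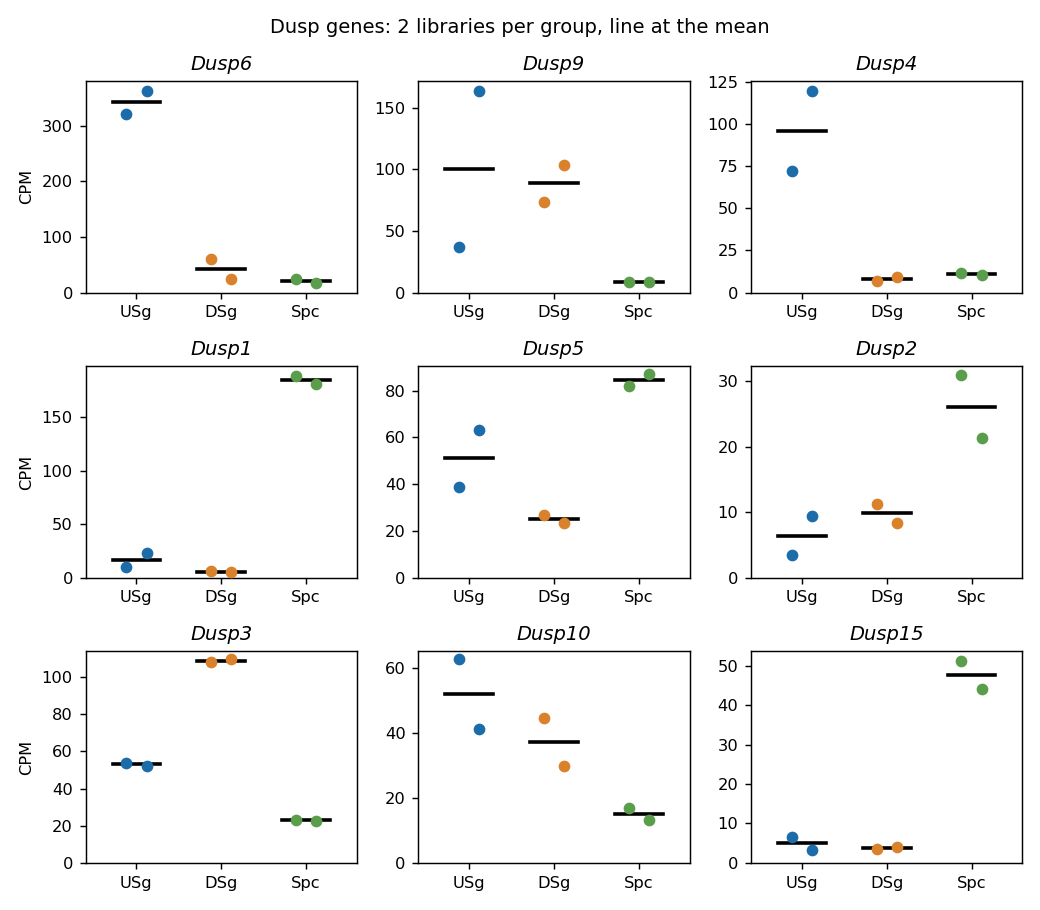
Points give the CPM of 9 Dusp genes in each library by group, with a line at the mean of 2 libraries and an axis from 0 in each panel. Dusp6 and Dusp4 are high in USg alone (321 and 363 CPM for Dusp6), Dusp1, Dusp15, Dusp2 and Dusp5 are highest in Spc, and Dusp3 is highest in DSg.

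Of the inducible nuclear phosphatases, Dusp4 had its highest mean in USg, and Dusp1, Dusp2 and Dusp5 had theirs in Spc. Only Dusp1 among these was called higher in Spc than in both groups of the line. Dusp4, which acts on ERK and JNK in the nucleus, stood at 72.2 and 120 CPM in USg, 6.87 and 9.42 in DSg and 11.8 and 10.2 in Spc. USg was high and the other 4 libraries were close together. Dusp4 fell 11.7-fold in DSg (-3.54 ± 0.42, adjusted p = 0.00697) and was 8.70-fold lower in Spc than in USg (-3.12 ± 0.40, adjusted p = 7.29e-04), with no call between Spc and DSg. Dusp1, an immediate early gene induced by serum and stress that acts on p38, JNK and ERK, was at 188 and 181 CPM in Spc, 10.0 and 22.8 in USg and 6.06 and 5.39 in DSg. Spc was far above the line, by 3.46 ± 0.43 (log2) against USg (adjusted p = 6.22e-04; 4.21 without USg 2, adjusted p = 9.64e-05) and by 5.01 ± 0.48, or 32.2-fold, against DSg (adjusted p = 3.13e-04). DSg against USg was -1.55 ± 0.45 and not called (adjusted p = 0.115), although the groups did not overlap. It was called by DESeq2 (-1.54, adjusted p = 0.0440), with no filter (-1.74, adjusted p = 0.0186) and without USg 1 (-2.13, adjusted p = 0.00918).

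Dusp5, a nuclear phosphatase specific for ERK, was at 82.0 and 87.3 CPM in Spc, 39.0 and 63.2 in USg and 26.7 and 23.4 in DSg. The 3 groups did not overlap. Dusp5 was higher in Spc than in DSg by 1.76 ± 0.36 (log2, adjusted p = 0.00803), a call lost without DSg 2 (adjusted p = 0.0577). DSg against USg was -1.04 ± 0.35 and not called (adjusted p = 0.169), except without USg 1 (-1.47, adjusted p = 0.0288), and Spc against USg was called only without USg 2 (1.134, adjusted p = 0.0485). Dusp2, best known from activated lymphocytes, was at 30.9 and 21.3 CPM in Spc, 3.47 and 9.44 in USg and 11.3 and 8.35 in DSg. Spc lay above the line, and Dusp2 was higher than in USg by 1.95 ± 0.52 (adjusted p = 0.0202), a call lost without Spc 1 (adjusted p = 0.119). Without USg 2 it was 2.92 (adjusted p = 0.00279). Against DSg it was 1.42 ± 0.52 and not called (adjusted p = 0.0737), except with no filter (adjusted p = 0.0166), in a fit of the 4 libraries compared (0.0198), without USg 1 (0.0117) and without USg 2 (0.00978).

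Among the phosphatases of JNK and p38, only Dusp10 was called. It was at 62.5 and 41.1 CPM in USg, 44.4 and 29.9 in DSg and 16.8 and 13.1 in Spc. The line overlapped within itself and lay above Spc, in which Dusp10 fell, with log2 fold changes of -1.79 ± 0.39 against USg (adjusted p = 0.00824) and -1.31 ± 0.39 against DSg (adjusted p = 0.0372). The first call was lost without Spc 2 (adjusted p = 0.105), and the second without DSg 1 (-0.82, 0.204), DSg 2 (0.0531), Spc 1 (0.202) or Spc 2 (0.356), and also when low counts were not filtered (0.0575). Dusp16 lay between 45.4 and 91.6 CPM and Dusp8 between 5.02 and 22.1 CPM, with no call. Without USg 2, Dusp8 was called higher in Spc than in USg (1.64, adjusted p = 0.0360).

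The remaining Dusp genes are phosphatases whose tie to FGF signalling is loose. Dusp15, a small myristoylated phosphatase, stood at 51.2 and 44.0 CPM in Spc, 6.56 and 3.38 in USg and 3.64 and 4.04 in DSg. Both Spc libraries were far above the line, by 3.31 ± 0.45 (log2) against USg (adjusted p = 9.38e-04) and 3.62 ± 0.47 against DSg (adjusted p = 0.00110). Dusp3, also called VHR, which can dephosphorylate ERK and JNK, was the Dusp gene with its highest level in DSg among those named in the plot of Dusp genes: 108 and 110 CPM there, 54.0 and 52.0 in USg and 23.3 and 22.6 in Spc. The replicates nearly coincided and the groups did not overlap. Dusp3 was 4.74-fold lower in Spc than in DSg (-2.25 ± 0.31, adjusted p = 0.00146) and 2.31-fold lower than in USg (-1.21 ± 0.30, adjusted p = 0.0152). The difference from USg was -1.24 without Spc 1 and -1.18 without Spc 2, and was not called in either fit. DSg against USg was 1.04 ± 0.30 and not called (adjusted p = 0.111).

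Dusp26 was sparse, with 12 and 20 counts in USg, 0 and 6 in DSg and 2 and 0 in Spc. Its counts per effective library size were 18.8 times as high in USg as in Spc, with an exact binomial 95% interval of 4.81 to 162 that covers counting error only. The call of Spc against USg (adjusted p = 0.0482) was lost without either USg library (0.134 without USg 1, 0.149 without USg 2) or either Spc library (0.147 without Spc 1, 0.394 without Spc 2), with total-count (0.0683) or upper quartile scaling (0.0546) and with a replicate block (0.0505). Dusp12 was at 4.24 and 5.88 CPM in USg, 14.9 and 10.5 in DSg and 5.52 and 3.92 in Spc. Its differences, 1.30 ± 0.54 for DSg against USg (adjusted p = 0.238) and -1.42 ± 0.53 for Spc against DSg (adjusted p = 0.0811), were not called, although DSg did not overlap the others. The second was called in a fit of only the 4 libraries compared (adjusted p = 0.0471). Dusp27, an enzyme-dead relative from muscle, lay between 3.09 and 18.8 CPM and Dusp19 between 2.56 and 8.90. Dusp27 differed by 1.06 ± 0.65 between DSg and USg (adjusted p = 0.405) and by -1.29 ± 0.65 between Spc and DSg (adjusted p = 0.173), and Dusp19 by -1.37 ± 0.67 between Spc and USg (adjusted p = 0.146), all without a call. Dusp18 lay between 54.1 and 69.4 CPM in all 6 libraries and Dusp22 between 8.35 and 17.7, with no call. Dusp14, Dusp21 and Dusp23 did not reach the filter.

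**Figure D5:**
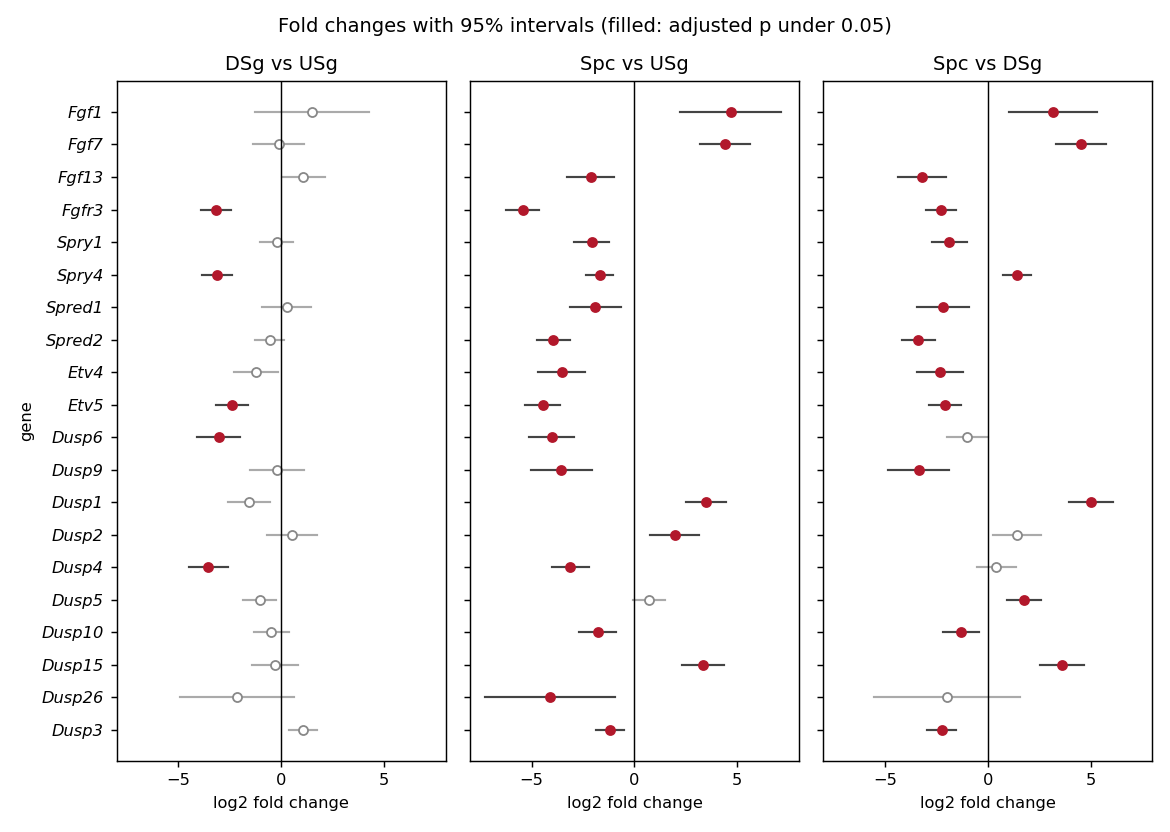
Points give the log2 fold change, and bars its 95% interval, of the 20 members called in at least 1 comparison, with filled points for an adjusted p under 0.05. For DSg against USg the 5 filled points, Fgfr3, Spry4, Etv5, Dusp6 and Dusp4, all lie below 0, and against DSg Spc has Spry4 above 0 (1.42).

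Other genes of the pathway and of classes near it, from 7 lists of 135 genes, were tested in the same fit where they passed the filter. The list of GDNF receptor and stem cell genes shares Lhx1, Gfra1, Zbtb16 and Id4 with the markers of undifferentiated spermatogonia, so it partly repeats the marker check above. Their counts for DSg against USg stand beside 1.92% lower and 0.565% higher over all genes. In DSg against USg, 1 of 6 tested co-receptor and ligand carrier genes was lower and none higher. This was Il17rd (Sef), a membrane inhibitor of FGF signalling, which fell from 85.7 ± 27.9 to 15.4 ± 3.43 CPM (means with SD of 2 libraries), a log2 difference of -2.49 ± 0.40 (edgeR adjusted p = 0.0205). Of 20 heparan sulphate genes 2 were lower, among them the syndecan gene Sdc4 (from 1021 ± 64.4 to 255.7 ± 110 CPM, -1.999 ± 0.359, adjusted p = 0.0298). Of 19 immediate early genes that ERK is known to raise, 4 were lower and 0 higher, with a median of -1.16. Among them were Egr3, an inducible zinc finger factor (-3.74 ± 0.58, adjusted p = 0.0191), and Ier3 (-3.53 ± 0.44, adjusted p = 0.00906). Of 11 GDNF receptor and stem cell genes 5 were lower, with a median of -2.73, among them Lhx1 (-4.24 ± 0.56). Of 16 other ETS factor genes 3 were lower and 1 higher by edgeR, and limma-voom called 2 lower and 1 higher. Among the lower were Elk3 (-2.25 ± 0.35, edgeR adjusted p = 0.0191) and Erg (-2.38 ± 0.51, adjusted p = 0.0497). The higher was Elf4 (1.60 ± 0.33, adjusted p = 0.0445), which like Erg lay near the threshold. Of 31 genes for adaptors and the Ras-ERK relay, which link the receptors to ERK, edgeR called 0 (1 higher and 2 lower at an unadjusted p under 0.05), and DESeq2 and limma-voom 0. Their median was -0.03. Of 14 genes for MAP kinases outside ERK edgeR, DESeq2 and limma-voom called 0 as well (0 higher and 3 lower at an unadjusted p under 0.05). None of the called genes of these lists was called without DSg 1 or DSg 2, when no gene was.

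Most immediate early genes that were called in Spc were higher there. Against DSg 11 of 19 were higher and 1 lower, with a median of 1.95, and against USg 7 were higher and 2 lower, with a median of 0.61. Over all genes, 14.8% were higher and 11.7% lower than in DSg, and 17.9% higher and 16.6% lower than in USg. Ier3 rose from 6.87 ± 4.00 CPM in DSg to 503.6 ± 93.3 in Spc (6.24 ± 0.48, edgeR adjusted p = 2.05e-04), and Egr2 by 4.31 ± 0.68. Against USg Myc was higher by 3.59 ± 0.47 and Fos by 3.22 ± 0.54. The 2 lower genes were Egr4 (-5.13 ± 0.89, adjusted p = 0.00280) and the cyclin gene Ccnd1 (-2.36 ± 0.38). Egr4 stood at 71.7 ± 65.9 CPM in USg, where its libraries were uneven, and at 2.00 ± 1.91 in Spc. Dusp1, which belongs to the same class of rapidly induced genes, was described above.

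In the other lists the fold changes named here were called by edgeR, and their counts stand beside 34.5% of all genes called against USg and 26.5% against DSg, which several lists do not exceed. Of the 31 adaptor and Ras-ERK relay genes, 5 were higher and 4 lower than in USg, and 1 higher and 4 lower than in DSg. The adaptor gene Gab2 rose from 45.0 ± 13.4 CPM in USg to 190 ± 38.9 (2.07 ± 0.38), Mapk3, which encodes ERK1, rose by 1.57 ± 0.42 against USg, and Rps6ka1, which encodes an ERK-activated kinase, fell from 189 ± 14.0 to 13.8 ± 1.37 CPM (-3.77 ± 0.34). Of 20 heparan sulphate genes, 5 were higher and 7 lower than in USg, and 4 higher and 1 lower than in DSg. Sulf1, which removes sulphate from heparan chains, was higher than in USg by 3.44 ± 0.48, and the glypican gene Gpc3 was lower (-3.65 ± 0.47). Of 6 co-receptor genes 2 were lower than in USg, Il17rd (-4.93 ± 0.46) and Flrt1 (-2.74 ± 0.38), and 2 lower than in DSg. Of 14 MAP kinase genes outside ERK, 1 was higher and 4 lower than in USg, and 1 higher and 3 lower than in DSg. Mapk15 rose by 4.02 ± 0.50 against USg and Mapk12 fell by 5.47 ± 0.57. Of 16 other ETS genes, 1 was higher and 5 lower than in USg, and 3 higher and 2 lower than in DSg, with Elf1 higher by 2.84 ± 0.41 against USg. Of 11 GDNF receptor and stem cell genes 9 were lower than in USg and 1, Id4, higher (1.42 ± 0.33), with a median of -4.38, while 5 were lower and 1 higher than in DSg, with a median of -1.34.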

How the data were processed

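RNA of 6 rat libraries was analysed, 2 per group, from 1 deposited table of raw read counts per gene symbol, which the authors had not normalized, as its whole numbers and unequal totals show. The submitters' processing notes name STAR 2.5.3a, Subread 1.4.6, featureCounts and edgeR 3.2.4 without their roles; no source used here gives the aligner, build or strand setting of the counts, so overlapping genes may share reads. All columns were matched to samples by title.

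Genes passing filterByExpr (minimum count 10, minimum total 15; 12210 of 16764) were scaled by TMM and tested with edgeR 4.0.16 (glmQLFit, glmQLFTest; limma 3.58.1, R 4.3.3) in 1 fit of 6 libraries with no replicate block and 3 residual degrees of freedom, Benjamini-Hochberg adjusted over all genes tested. An SE was taken as the size of the log2 fold change divided by the root of its F statistic, and the 95% interval from it and the t quantile of the fit. The fit was first run on counts simulated from its own model, with the spread estimated from these libraries. That run cannot show how uneven libraries affect the calls, and no result here rests on it.

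A fold change with its error is given for members with an adjusted p under 0.05, for those with an absolute log2 fold change of at least 1 and 5 CPM in the higher group, and for Dusp6, Spry4, Etv5 and Fgfr3; other members are given by level. From each pathway list the 2 lowest and 2 highest called genes with at least 20 CPM were eligible to be named. The rule for the members uses gene symbols and no values, but members and lists were chosen with earlier results of these data known. The 17 alternatives were RLE, total-count and upper quartile scaling, no filter, a filter of 5 CPM in 2 libraries, DESeq2 1.42.0, limma-voom, a replicate block, ribosomal RNA genes left out, only the 4 libraries compared, each library left out in turn, and USg 1 and DSg 1 left out together. Members were matched by symbol to RefSeq (GRCr8): 57 of 58 had a current symbol and 48 a promoter window, searched for exact letters on both strands.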

Additional observations from a re-analysis of the deposited data

How the results depend on the processing

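The 5 members called lower in DSg than in USg kept their call in 15 of 17 alternatives and lost it without DSg 1 or DSg 2. Over the libraries left out in turn, the count of members lower in DSg than in USg ranged from 0 to 8 and of those higher from 0 to 1; for Spc against USg from 9 to 14 lower and 4 to 7 higher; for Spc against DSg from 7 to 10 lower and 4 to 7 higher. With USg 1 and DSg 1 left out together, USg and DSg each kept a lone library and the spread rested on Spc alone. More calls were made in that setting in both directions in all 3 comparisons, over the members and over all genes alike. Of the 17 Fgf genes below the filter, Fgf5 and Fgf12 then passed it and were called lower in Spc than in DSg. Among members given with a fold change, 1 value changed sign, Fgfr4 in Spc against DSg without DSg 2 (0.45; -2.42 to 0.45 over the libraries left out). Counts of all genes called in DSg against USg moved by more than 1.5 times: 69 higher and 234 lower with the fit reported, 189 and 855 with no filter, 239 and 542 with DESeq2, 168 and 436 with a replicate block, 58 and 141 with total counts, 317 and 1184 without USg 1, 0 and 0 without DSg 1 or DSg 2, 80 and 411 without Spc 1, 81 and 383 without Spc 2, 2992 and 3335 without USg 1 and DSg 1 together, and 10 and 80 with only the 4 libraries compared.

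Replicate numbers did not pair the samples by any label, and the deviations of same-numbered libraries correlated at 0.25 (USg and DSg), -0.27 (USg and Spc) and 0.01 (DSg and Spc) over 12210 genes. With the replicate block, 5 members were lower and 0 higher in DSg against USg, 13 lower and 6 higher in Spc against USg, and 10 lower and 6 higher in Spc against DSg. With total-count and upper quartile scaling the median log2 fold change of all genes was 0.16 and 0.15 in DSg against USg, -0.07 and -0.10 in Spc against USg and -0.22 and -0.25 in Spc against DSg. Of the members given by level only, 14 of 25 changed direction in at least 1 alternative in DSg against USg, 5 of 14 in Spc against USg and 5 of 16 in Spc against DSg, and 1, 0 and 2 of them did so with these scalings. Pathway lists were run with DESeq2 and limma-voom, not with the other alternatives. The 21 members below the filter are limited by depth.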

Other observations

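Other short motifs were searched in the 53 promoter windows of 48 members, on both strands, beside all 33469 windows. The longer ETS motif CCGGAAG, which holds CGGAA, was found in 2 member windows (3.77%), those of Dusp18 and Dusp19, against 7.27% of all windows. The AP-1 motif TGANTCA was in 5.66% of member windows against 6.34%, and the CCAAT box in 34.0% of both, with 3 copies in the Etv5 window and 1 each in those of Dusp6 and Fgfr3. The cyclic AMP response element TGACGTCA was in 1 member window, that of Dusp1 (1.89% against 1.59%). Among the members with CGGAA were Spry2, Spry3, Spred1, Spred2, Dusp5, Fgf2, Fgf7 and Fgfr2, whose levels differed in both directions or were not called. These matches are descriptions of letters, and no binding was measured at them here.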
